A study of Mus musculus with 53 samples.

Results

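The genes described here encode the core of insulin and insulin-like growth factor (IGF) signalling, namely Insr, Irs1, Irs2, Igf1, Igf1r, Igf2, Igfbp2, Igfbp3, Pik3r1 and Akt2. The rule that chose them uses their names and roles and no measured value, but the choice was made with earlier results of these data known. All 10 were found by symbol among the 49568 genes of the dataset. The RNA came from 53 sciatic nerve (SCN) samples of male C57BL/6J mice in 8 groups, and the question each comparison addresses is whether diet, streptozotocin (STZ), dietary reversal (DR) or age goes with a different level of these transcripts in the nerve. At 16 weeks of age there were 5 mice on standard diet (SD), 7 mice on a high-fat diet (HFD) with 60% of its energy from fat, and 5 HFD mice that also received STZ in doses of 75 and then 50 mg per kg (HFD-STZ). At 24 weeks there were 8 SD, 7 HFD and 8 HFD-STZ mice, together with 7 HFD-DR and 6 HFD-STZ-DR mice that had been returned to SD for their last 8 weeks. None of the groups carries a transgene or deletion. HFD is the prediabetic model and HFD-STZ the model of type 2 diabetes, in which HFD mice are also given a low dose of STZ, a toxin of pancreatic beta cells. Each sample is labelled as a separate nerve sample of its group, and the p-values below measure only the spread between these samples.

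Insulin and the IGFs bind the receptor tyrosine kinases encoded by Insr and Igf1r, which phosphorylate the insulin receptor substrates IRS1 and IRS2. These recruit phosphatidylinositol 3-kinase (PI3K), whose regulatory subunit p85 alpha is the product of Pik3r1, and PI3K in turn leads to activation of AKT kinases, among them AKT2. IGF binding proteins hold the ligands in the circulation and in tissue and so set how much reaches the receptor. In peripheral nerve, insulin and IGF1 act as trophic factors for neurons and Schwann cells, and loss of their action has long been discussed in diabetic neuropathy. The transcripts measured here do not report receptor phosphorylation or hormone levels.

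Promoter windows of 9 of these genes were taken from RefSeq on GRCm38.p6, covering 250 bases before to 50 bases after each start site, and 17 such windows were searched on both strands. The palindromic E-box CACGTG, a site for basic helix-loop-helix factors, was in 3 windows, 1 each of Igfbp2, Irs1 and Irs2, and in 7.15% of all 32851 windows. The forkhead sequence GTAAACA, bound by FOXO factors, which AKT phosphorylates, was in 0 of the 17 windows and in 3.65% of all windows. The 250 bases before the start site are shown for the 3 genes with the E-box, because both substrate genes are among them and because they allow a comparison of genes that share a motif. The capitals mark the E-box, and each sequence is written 5′ to 3′ on the strand of the gene.
Irs1: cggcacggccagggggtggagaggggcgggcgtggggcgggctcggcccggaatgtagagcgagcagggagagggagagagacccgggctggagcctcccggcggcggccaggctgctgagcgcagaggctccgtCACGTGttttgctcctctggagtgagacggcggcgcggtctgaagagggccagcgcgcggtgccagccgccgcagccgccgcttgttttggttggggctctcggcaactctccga
Irs2: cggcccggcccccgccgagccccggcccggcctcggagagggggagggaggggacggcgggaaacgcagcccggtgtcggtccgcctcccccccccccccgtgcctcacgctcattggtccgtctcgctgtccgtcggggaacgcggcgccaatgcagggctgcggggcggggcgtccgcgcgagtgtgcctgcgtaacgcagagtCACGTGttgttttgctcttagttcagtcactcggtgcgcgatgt
Igfbp2: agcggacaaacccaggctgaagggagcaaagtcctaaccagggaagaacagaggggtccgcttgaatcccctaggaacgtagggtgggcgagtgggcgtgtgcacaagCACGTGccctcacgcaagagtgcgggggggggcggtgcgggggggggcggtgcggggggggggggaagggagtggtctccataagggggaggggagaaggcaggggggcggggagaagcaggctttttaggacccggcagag
The Irs1 sequence lies at chr1:82291440-82291689 on the minus strand, with the motif ending 109 bases before the start site. The Irs2 sequence lies at chr8:11008930-11009179 on the minus strand, with the motif 38 bases before the start site, and the Igfbp2 sequence at chr1:72824230-72824479 on the plus strand, with the motif 136 bases before it. All 3 are rich in G and C, at 72.4%, 72.8% and 67.2%. The genes that share the motif did not share a pattern over the 53 nerves, since Irs1 and Irs2 correlated at r = 0.45, whereas Igfbp2 correlated at -0.26 with Irs1 and at -0.27 with Irs2. Replicate 7 of the HFD-STZ mice of 24 weeks held the lowest Irs1 value of all mice, 8.76, with Irs2 at 11.75 and Igfbp2 at 7.74. These correlations were not computed without that sample.

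The log2 values had already been normalized when deposited, and the number of reads behind each is unknown, so the spread between mice is the only measure of error. To compare levels between genes, the exonic length in GENCODE M21 was divided out, giving log2 values per kb. On that scale the PI3K subunit gene Pik3r1 had the highest level, at 10.12 ± 0.20 (SD over 53 mice), followed by Akt2 at 9.64 ± 0.24 and Irs2 at 9.43 ± 0.16. These 3 intracellular components were measured at higher levels per kb than both receptors, as Insr stood at 6.83 ± 0.31 and Igf1r at 6.40 ± 0.27, whereas the substrate gene Irs1 was at the level of Insr, at 6.83 ± 0.36. Between these came the secreted components Igfbp3 at 8.74 ± 0.73, Igf1 at 7.76 ± 0.72 and Igf2 at 7.19 ± 0.35 per kb, and the lowest was Igfbp2 at 4.43 ± 0.80. Neighbours in this order were mostly in the same order within a mouse, with Igfbp3 above Igf1 in 53 of 53 mice, Pik3r1 above Akt2 in 46 and Igf1r above Igfbp2 in 51. The step between neighbours was no larger than its SD over mice for Akt2 and Irs2 (0.21 ± 0.25 per kb), Igf1 and Igf2 (0.57 ± 0.65) and Igf2 and Insr (0.36 ± 0.39), and was 0.69 ± 0.69 for Irs2 and Igfbp3. Insr and Irs1 could not be ordered, since they differed by 0.0028 ± 0.38 (SD) per kb and Insr was higher in 24 of 53 mice. Irs1 shares 30.9% of its exonic bases with Gm9747 on the opposite strand, which is listed at 0, and Igf2 shares 62.8% with Gm49394 on its own strand, which was not used here. The levels per kb of Irs1 and Igf2 are uncertain for that reason, because the libraries are described as non-stranded and reads in shared bases cannot be assigned to 1 gene.

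The mice of a group differed far more in some of the genes than in others. The pooled within-group SD was 0.14 log2 units for Irs2, and only 11.1% of the 18069 genes whose mean reached 3.32 (10 on the linear scale) had a smaller one. Pik3r1 (0.19), Akt2 (0.22) and Igf1r (0.26) were at or below the median of these genes, which was 0.26. Insr had an SD of 0.32, Igf2 of 0.35 and Irs1 of 0.35. The secreted factors Igfbp3 (0.69), Igf1 (0.72) and Igfbp2 (0.79) were spread more than 91.9%, 92.8% and 94.5% of the genes. The plot of the values in each mouse shows this contrast.

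**Figure D1:**
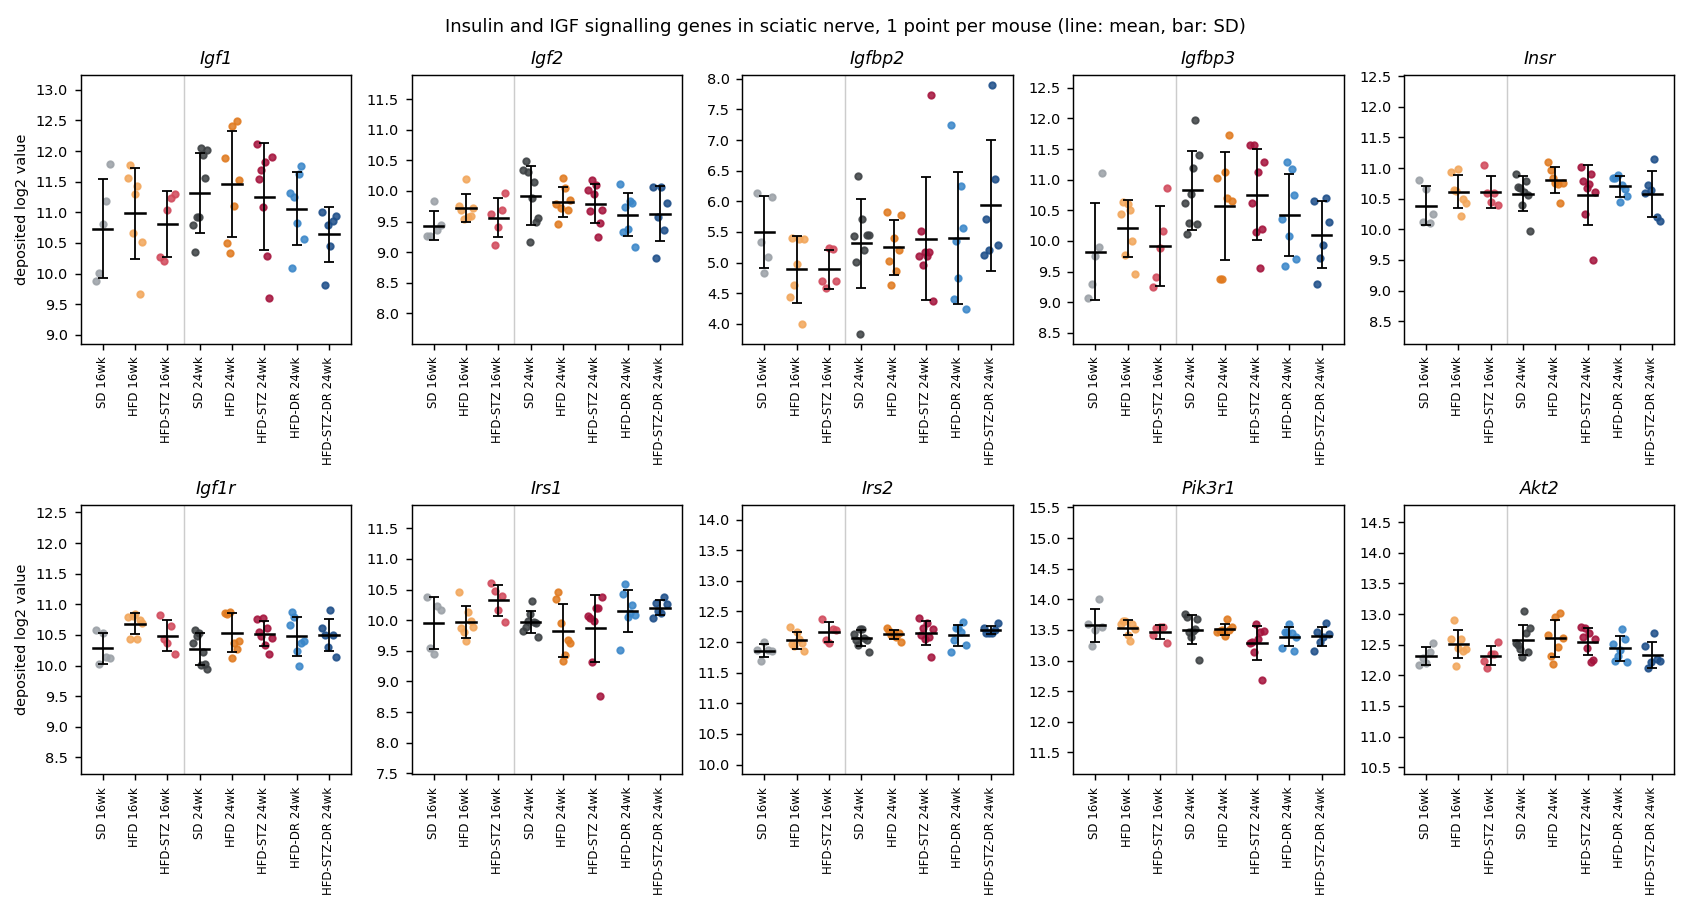
Deposited log2 value (vertical axis, each panel spanning the same 4.4 log2 units) of the 10 insulin and IGF signalling genes in the 8 groups, 1 point per mouse, with the group mean (line) and SD (bar). The pooled within-group SD is 0.72 for Igf1, 0.79 for Igfbp2 and 0.69 for Igfbp3, against 0.14 for Irs2 and 0.19 for Pik3r1, and the groups overlap in every panel.

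Before the comparisons, 2 features of the samples need to be given. Markers of Schwann cells, which a nerve must hold, were high in every sample, at a mean log2 value of 16.7 to 17.6 over 6 genes. Markers of skeletal muscle ranged from 7.05 to 17.4, and 6 samples had a muscle score above 14, of which 1 each was in the SD group of 16 weeks and the SD, HFD and HFD-STZ-DR groups of 24 weeks and 2 were in the HFD-DR group. Member differences with an unadjusted limma p under 0.05 in groups that hold any of these 6 samples are given with and without them. The values and counts of the further pathway and response genes are given with them only. In addition, replicate 7 of the HFD-STZ group at 24 weeks had the lowest median correlation with the other samples, at 0.941 against 0.954 for the next lowest. It was the lowest of its group in 6 of the 10 genes, with Insr at 9.51, Irs1 at 8.76, Irs2 at 11.75, Igf1 at 9.60, Igf1r at 10.18 and Pik3r1 at 12.69, and the highest in Igfbp2, at 7.74.

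Across 14 comparisons between groups, 0 of 140 member differences passed an adjusted p-value of 0.05 in limma's moderated test, with p-values adjusted over every gene in the fit by the Benjamini-Hochberg method, and the smallest adjusted p was 0.376. Over the same comparisons, 0.0229% of all 252868 gene tests passed. At an unadjusted p under 0.05 there were 14 of 140 member differences, or 10%, beside 7.31% of all gene tests. No pair of groups was fully separated in any member, against 0.398% of all gene tests. Of those 14 differences, 8 involve the SD mice of 16 weeks and 8 the SD mice of 24 weeks, with 4 in both counts, so the comparisons share their control samples and are not independent of each other. The data also bound the size of what could have been missed, but only on the scale of the deposited values, whose normalization is not given. The 95% interval of a difference, not adjusted for the number of tests, lay within a 2-fold difference in either direction in 117 of the 140. For Insr, Igf1r, Irs1, Irs2, Igf2, Pik3r1 and Akt2 this held in 14 of 14 comparisons, whereas it held in 6 for Igf1, 7 for Igfbp2 and 6 for Igfbp3. A larger difference in these last genes could therefore not be excluded in many comparisons at this spread and number of mice.

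**Figure D2:**
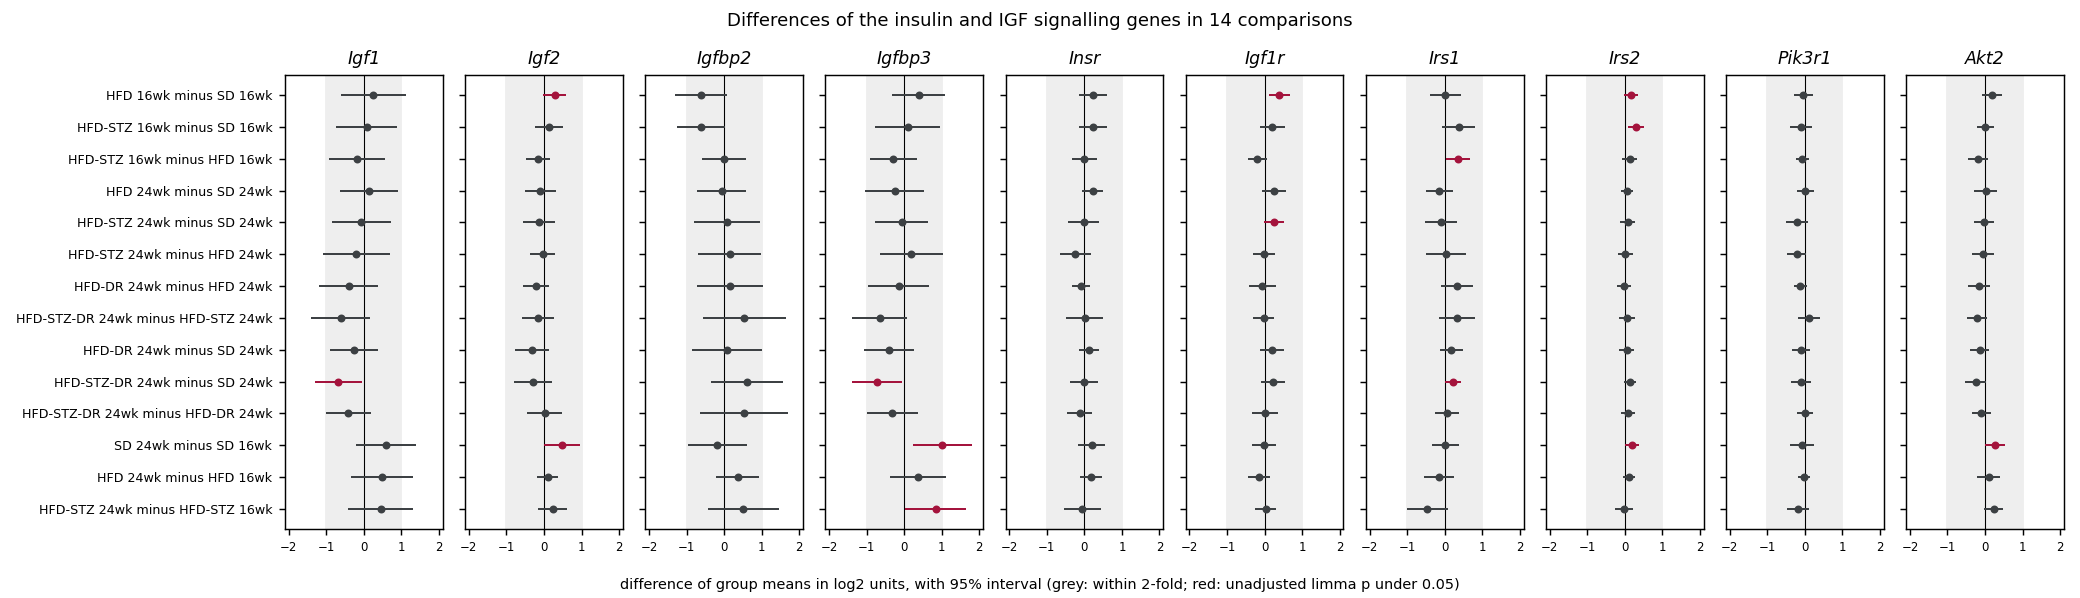
Difference of group means in log2 units (horizontal axis) with its 95% interval for each gene (panels) in each of the 14 comparisons (rows), where the grey band spans a 2-fold difference either way and red marks an unadjusted limma p under 0.05. The 14 red intervals are spread over 7 genes, 0 of them passed the adjusted threshold, and intervals of Igf1, Igfbp2 and Igfbp3 are the widest.

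Of the ligands, Igf1 (ENSMUSG00000020053, chr10:87858265-87937042, plus strand) encodes the growth factor made in liver and in many tissues for local use. Its group means ran from 10.64 in HFD-STZ-DR mice to 11.46 in HFD mice at 24 weeks. In SD mice of 24 weeks Igf1 ranged from 10.36 to 12.05 with a median of 11.24, and in HFD-STZ-DR mice from 9.82 to 11.00 with a median of 10.82. All 6 HFD-STZ-DR mice were below the SD median, although the groups overlapped. The difference was -0.68 ± 0.28 (SE), which corresponds to 0.413-fold to 0.945-fold (95% interval), with an unadjusted p of 0.0285, an adjusted p of 0.483 in limma and an exact permutation p of 0.0536. Without the samples of high muscle score it was -0.53 and no longer under 0.05 before adjustment. In the HFD and HFD-STZ comparisons with SD the intervals for Igf1 spanned 0, with differences of +0.25 and +0.08 at 16 weeks and +0.14 and -0.06 at 24 weeks.

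Igf2 (ENSMUSG00000048583, chr7:142650766-142666816, minus strand) encodes the imprinted fetal growth factor. In SD mice of 16 weeks its values were 9.26, 9.27, 9.83, 9.36 and 9.45, in HFD mice of that age they ranged from 9.53 to 10.20 with a median of 9.68, and in SD mice of 24 weeks from 9.16 to 10.49 with a median of 10.02. The youngest control mice were thus the lowest group, while single mice of all 3 groups overlapped. The difference was +0.29 ± 0.13 (SE) between HFD and SD at 16 weeks, with an unadjusted p of 0.0428, an adjusted p of 0.572 and an exact permutation p of 0.0518. It was +0.49 ± 0.21 between SD mice of 24 and 16 weeks, with an unadjusted p of 0.0353, an adjusted p of 0.461 and an exact permutation p of 0.0622. Without the samples of high muscle score these became +0.25 and +0.46, and neither stayed under 0.05 before adjustment. The score of adipocyte markers, the mean log2 value of 6 genes, was higher by 1.83 in the HFD mice and by 1.63 in the older SD mice. With that score as a covariate the Igf2 differences were +0.19 and +0.32, neither under 0.05 before adjustment.

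Among the binding proteins, Igfbp3 (ENSMUSG00000020427, chr11:7206086-7213923, minus strand) encodes the main carrier of IGFs in blood, which is also secreted by stromal cells. Its values in SD mice of 16 weeks were 9.06, 9.29, 9.75, 9.89 and 11.10, against 10.11 to 11.97 with a median of 10.69 in SD mice of 24 weeks. All 8 older mice were above the median of the younger, but 1 younger mouse reached 11.10. The difference was +1.01 ± 0.35 (SE), or 1.19-fold to 3.41-fold (95% interval), and was the largest of any of the genes in any comparison, with an unadjusted p of 0.0129, an adjusted p of 0.437 and an exact permutation p of 0.0303. In this comparison 4 of 10 members had an unadjusted p under 0.05, beside 10.5% of all genes, and all 4 were higher in the older mice. The adipocyte marker score was also higher in the older SD mice, by 1.63 with all 6 markers in that direction (exact permutation p = 0.0381, unadjusted), and ranged from 9.46 to 12.0 against 7.43 to 11.4. The Schwann cell score was lower in them, with a difference of -0.28 and all 6 markers in that direction (exact permutation p = 0.0381, unadjusted), and its part in the differences was not tested. With the adipocyte score as a covariate the Igfbp3 difference was +0.31, and without the samples of high muscle score it was +0.82, and neither was under 0.05 before adjustment. Between HFD-STZ mice of 24 and 16 weeks Igfbp3 differed by +0.84 ± 0.36 (unadjusted limma p = 0.0372, adjusted p = 0.376, exact permutation p = 0.0660), the single member under 0.05 there beside 12.5% of all genes. Between HFD mice of these ages it differed by +0.37, with an interval from -0.34 to 1.08.

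In HFD-STZ-DR mice Igfbp3 was centred below SD mice of 24 weeks, at 9.30 to 10.70 with a median of 10.12 against the 10.11 to 11.97 given above. The difference was -0.73 ± 0.30 (SE), with an unadjusted p of 0.0270, an adjusted p of 0.479 in limma and an exact permutation p of 0.0483. It was -0.64 and no longer under 0.05 before adjustment without the samples of high muscle score. In that comparison 3 of 10 members were under 0.05 before adjustment, beside 9.16% of all genes, and these were Igf1, Igfbp3 and Irs1. The adipocyte score differed by -1.46 in the HFD-STZ-DR mice (6 of 6 markers, exact permutation p = 0.00866) and the nerve fibroblast score by -0.52 (6 of 6 markers, exact permutation p = 0.0400). With the adipocyte score as a covariate the differences became -0.05 for Igf1 and -0.06 for Igfbp3, and with the fibroblast score -0.01 and -0.06.

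Igfbp2 (ENSMUSG00000039323, chr1:72824503-72852474, plus strand) encodes a binding protein that circulates at lower levels in obesity. It was the lowest of the genes in the nerve, with group means between 4.89 and 5.93. At 16 weeks the SD values were 6.13, 5.33, 4.83, 5.10 and 6.08, the HFD-STZ values 4.70, 4.58, 5.24, 5.21 and 4.70, and the HFD values ran from 3.996 to 5.41 with a median of 4.97. Both disease groups were centred lower than SD with overlap, and the differences of -0.60 ± 0.31 for HFD and -0.61 ± 0.28 for HFD-STZ did not pass even before adjustment (unadjusted limma p = 0.0715 and 0.0521, exact permutation p = 0.0985 and 0.0794). At 24 weeks the same differences were -0.07 and +0.08, and the second was -0.26 without replicate 7 of HFD-STZ. The highest value in HFD-STZ-DR mice, 7.90, was that of replicate 4, which had a muscle score of 16.7. The difference of HFD-STZ-DR from HFD-DR mice was +0.53 (interval -0.61 to 1.67) with all samples, +0.14 without that replicate and +0.34 without the samples of high muscle score in both groups.

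Of the receptors, Igf1r (ENSMUSG00000005533, chr7:67952827-68233668, plus strand) encodes the main receptor of both IGFs. Its values in SD mice of 16 weeks were 10.58, 10.03, 10.54, 10.14 and 10.13, and in HFD mice of that age they ran from 10.44 to 10.85 with a median of 10.75. All 7 HFD mice were above the SD median of 10.14, and the overlap came from the 2 highest SD mice. The difference was +0.40 ± 0.12 (SE), or 1.11-fold to 1.57-fold (95% interval), with an unadjusted p of 0.00439, an adjusted p of 0.430 in limma and an exact permutation p of 0.0101. It kept an unadjusted p under 0.05 in 12 of 12 fits that left out 1 mouse and without the samples of high muscle score, where it was +0.33. In that comparison 3 of 10 members were under 0.05 before adjustment, beside 8.55% of all genes, namely Igf1r, Irs2 and Igf2, all higher in HFD mice. The adipocyte score was higher by 1.83 in these HFD mice (6 of 6 markers, exact permutation p = 0.0240), at 10.5 to 12.5 against 7.43 to 11.4, and with it as a covariate the Igf1r difference was +0.51 and still under 0.05 before adjustment.

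The other comparisons of Igf1r with SD were in the same direction and smaller. In HFD-STZ mice it differed by +0.21 at 16 weeks (interval -0.11 to 0.52) and by +0.25 ± 0.11 at 24 weeks, where the values ran from 10.18 to 10.78 against 9.94 to 10.59 in SD mice. The latter had an unadjusted limma p of 0.0401, an adjusted p of 0.824 and an exact permutation p of 0.0510, was the single member under 0.05 beside 5.99% of all genes, and lost that level without the samples of high muscle score (+0.21). In HFD mice of 24 weeks the difference was +0.26 (interval -0.03 to 0.56), in HFD-DR mice +0.20 and in HFD-STZ-DR mice +0.23. All 4 comparisons at 24 weeks share the same SD mice. Against their own disease groups, Igf1r differed by -0.06 between HFD-DR and HFD (interval -0.39 to 0.27) and by -0.03 between HFD-STZ-DR and HFD-STZ (interval -0.28 to 0.23).

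Insr (ENSMUSG00000005534, chr8:3122061-3279617, minus strand), the insulin receptor gene, had 0 of 14 differences under an unadjusted p of 0.05 in limma. Its group means lay between 10.39 in SD mice of 16 weeks and 10.80 in HFD mice of 24 weeks. Against SD, HFD mice differed by +0.23 at 16 weeks (interval -0.10 to 0.57) and by +0.22 at 24 weeks (interval -0.04 to 0.48), the latter with the smallest p of this gene (0.0969). The test of whether the HFD difference changed with age gave -0.01 ± 0.20 (SE). HFD-STZ mice of 24 weeks differed from SD by -0.02, and by +0.13 without replicate 7.

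Of the substrate genes, Irs2 (ENSMUSG00000038894, chr8:10984681-11008458, minus strand) encodes the substrate through which insulin acts in liver and beta cells. In SD mice of 16 weeks its values were 11.87, 11.69, 12.00, 11.87 and 11.86, and in HFD-STZ mice of that age 12.38, 12.04, 11.98, 12.21 and 12.20. All 5 HFD-STZ mice were above the SD median, and 1 of them was below the highest SD mouse. The difference was +0.30 ± 0.09 (SE), or 1.08-fold to 1.41-fold (95% interval), with an unadjusted p of 0.00452, an adjusted p of 0.531 in limma and an exact permutation p of 0.0159. It was the single member under 0.05 before adjustment in that comparison, beside 8.41% of all genes, held this level in 10 of 10 fits that left out 1 mouse, and was +0.26 and still under it without the samples of high muscle score. The adipocyte score differed by 0.76 between these groups (exact permutation p = 0.389), and with it as a covariate the Irs2 difference was +0.28 and still under 0.05 before adjustment.

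The SD mice of 16 weeks had the lowest mean of Irs2, 11.86, and enter 2 further differences of this gene. HFD mice of 16 weeks ranged from 11.85 to 12.24 with a median of 11.99 and differed from them by +0.17 ± 0.08, with an unadjusted p of 0.0470, an adjusted p of 0.574 and an exact permutation p of 0.0480. SD mice of 24 weeks ranged from 11.84 to 12.22 with a median of 12.05 and differed by +0.20 ± 0.08, with an unadjusted p of 0.0176, an adjusted p of 0.437 and an exact permutation p of 0.0163. Without the samples of high muscle score these were +0.13 and +0.14, neither of them under 0.05 before adjustment. The 3 differences share the same 5 control mice. At 24 weeks Irs2 differed from SD by +0.07 in HFD and +0.08 in HFD-STZ mice, with intervals of -0.06 to 0.20 and -0.09 to 0.26. The test of whether the HFD-STZ difference changed with age gave -0.22 ± 0.13, with the smallest p of the 30 such tests (0.0887, adjusted 0.756 in limma), and 0 of the 30 were under 0.05 even without adjustment, beside 1.67%, 4.68% and 1.71% of all genes in the 3 kinds of test.

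Irs1 (ENSMUSG00000055980, chr1:82233101-82291416, minus strand), the substrate through which insulin acts in muscle and fat, was highest in HFD-STZ mice of 16 weeks. Their values were 10.61, 10.48, 10.17, 10.39 and 9.98, against 9.66 to 10.46 with a median of 9.90 in HFD mice of that age. All 5 were above the HFD median with overlap at the top of the HFD range. The difference was +0.35 ± 0.14 (SE), with an unadjusted p of 0.0205, an adjusted p of 0.987 in limma and an exact permutation p of 0.0455, and Irs1 was the single member under 0.05 there, beside 4.88% of all genes. Neither group held a sample of high muscle score. It was under 0.05 before adjustment in 10 of 12 fits that left out 1 mouse, and without replicate 1 of HFD-STZ it was +0.28 and was not. Between HFD-STZ mice of 24 and 16 weeks Irs1 differed by -0.46 (interval -0.98 to 0.06), with all 8 older mice below the median of the younger, and by -0.30 without replicate 7 of the older group.

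At 24 weeks Irs1 was in a narrow band in HFD-STZ-DR mice, from 10.04 to 10.38 with a median of 10.20, and ran from 9.72 to 10.31 with a median of 9.96 in SD mice. All 6 HFD-STZ-DR mice were above the SD median. The difference was +0.23 ± 0.09 (SE), or 1.03-fold to 1.34-fold (95% interval), with an unadjusted p of 0.0167, an adjusted p of 0.426 in limma and an exact permutation p of 0.0190. It was under 0.05 in 14 of 14 fits that left out 1 mouse and without the samples of high muscle score, where it was +0.30, but was +0.16 and not under 0.05 with the adipocyte score as a covariate. Against their own disease groups, HFD-DR mice differed by +0.32 (interval -0.08 to 0.72) and HFD-STZ-DR mice by +0.34 (interval -0.12 to 0.79) in Irs1, neither of which passed before adjustment. The latter was +0.18 without replicate 7 of HFD-STZ.

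Downstream of the substrates, Pik3r1 (ENSMUSG00000041417, chr13:101680563-101768217, minus strand) had 0 of 14 differences under 0.05 in limma before adjustment. Its closest was between HFD-STZ mice of 24 weeks, at 12.69 to 13.60 with a median of 13.32, and HFD mice, at 13.40 to 13.68 with a median of 13.49. The HFD-STZ group was centred lower with overlap, by -0.22 ± 0.11 (SE), with an unadjusted p of 0.0546, an adjusted p of 0.785 in limma and an exact permutation p of 0.0398. No member was under 0.05 in limma in that comparison, beside 5.59% of all genes. Without replicate 7, which held the lowest value, the difference was -0.14.

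Akt2 (ENSMUSG00000004056, chr7:27591552-27640826, plus strand) encodes the AKT kinase that carries insulin's signal to glucose transport in fat and muscle. In SD mice of 16 weeks its values were 12.18, 12.28, 12.20, 12.39 and 12.53, against 12.31 to 13.04 with a median of 12.52 in SD mice of 24 weeks. All 8 older mice were above the median of the younger, with overlap. The difference was +0.27 ± 0.12 (SE), with an unadjusted p of 0.0338, an adjusted p of 0.461 in limma and an exact permutation p of 0.0427. As given above for these mice, the adipocyte score was higher and the Schwann cell score lower at 24 weeks. The Akt2 difference was +0.08 with the adipocyte score as a covariate and +0.20 without the samples of high muscle score, neither under 0.05 before adjustment. In the diet comparisons Akt2 stayed within 0.25 log2 units of its control, with +0.19 for HFD at 16 weeks, +0.02 at 24 weeks, and -0.16 and -0.21 for the DR groups against HFD and HFD-STZ.

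DR addressed whether a return to SD goes with other levels of these genes than continued HFD. In HFD-DR against HFD mice 0 of 10 members were under an unadjusted p of 0.05 in limma, beside 6.72% of all genes, with differences from -0.41 for Igf1 to +0.32 for Irs1. With all samples, 0 of 10 were under it when HFD-STZ mice were compared with HFD-STZ-DR mice, beside 6.48% of all genes. This count rested on 1 sample. Without replicate 7 of the HFD-STZ group, 4 of 10 members were under 0.05 before adjustment, beside 8.28% of all genes, with Igf1 at -0.85, Igfbp3 at -0.73, Akt2 at -0.25 and Igfbp2 at +0.88. Their adjusted p-values in limma were 0.259, 0.592, 0.531 and 0.566. The Igfbp2 value includes replicate 4 of HFD-STZ-DR, and leaving out that sample in place of replicate 7 gave +0.15. Over the 4 comparisons that include the HFD-STZ mice of 24 weeks, leaving out that sample took the number of members under 0.05 from 2 to 8 of 40, beside 7.65% and 9% of all gene tests, and turned the sign of 14 of the 40 differences, none of which had an unadjusted p under 0.05 with all samples. In the HFD-STZ-DR mice the adipocyte score was below that of HFD-STZ mice, with a difference of -1.92 (6 of 6 markers, exact permutation p = 0.00633), at 7.82 to 10.6 against 9.99 to 12.5. With that score as a covariate and all samples, the Igf1 difference was +0.64 in place of -0.62, and neither value passed adjustment. HFD-DR and SD mice had 0 of 10 members under 0.05, beside 5.14% of all genes, and HFD-STZ-DR and HFD-DR mice had 0, beside 3.58%. The same count was 0 for HFD against SD at 24 weeks, beside 9.05%, and 0 for HFD mice of 24 against 16 weeks, beside 5.9%.

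Igf1, Igfbp3 and Akt2 moved from mouse to mouse with markers of other cells. Igfbp2, the most widely spread of the members, lay between r = -0.37 with the perineurial score and 0.32 with the muscle score. These 2 relations passed adjustment for r (adjusted permutation p = 0.0195 and 0.043) but not for rho (0.82 and 0.166). Its relation with the Schwann cell score passed for both (r = -0.35, rho = -0.33, adjusted permutation p = 0.0246 and 0.0378). A marker score is the mean log2 value of 5 or 6 genes of a cell type, and in bulk tissue fewer cells of a type and less RNA per cell cannot be told apart. Igf1 correlated over the 53 mice with the macrophage score (Pearson r = 0.88, Spearman rho = 0.90), the nerve fibroblast score (0.86 and 0.86), the adipocyte score (0.84 and 0.86) and the endothelial score (0.77 and 0.79), and inversely with the Schwann cell score (-0.67 and -0.69). Igfbp3 followed the same scores, with r = 0.80 and rho = 0.83 for macrophages, 0.77 and 0.82 for fibroblasts and 0.79 and 0.78 for adipocytes, and -0.72 and -0.74 for Schwann cells. Akt2 was closest to the adipocyte score, with r = 0.82 and rho = 0.87, and to the Schwann cell score, with -0.74 and -0.71. Each of these had a permutation p of 1e-05, the smallest that 100000 resamples can give, and an adjusted p of 3.89e-05 for r over the 70 relations computed. Without the 2 mice farthest from the median score, r was 0.87 for Igf1 and macrophages, 0.84 for Igf1 and fibroblasts, 0.76 for Igfbp3 and adipocytes and 0.82 for Akt2 and adipocytes. Within groups, after the group mean was taken out of both values, the same relations stood at 0.87, 0.87, 0.80 and 0.79, and at 0.87, 0.85, 0.78 and 0.78 with the 8 runs of library numbers taken out as well. Igf2 also correlated with the adipocyte score (r = 0.61, rho = 0.58, adjusted permutation p = 3.89e-05 and 7.78e-05), with r = 0.57 within groups. For Igf2 the Schwann cell (r = -0.40), endothelial (0.42), macrophage (0.39) and fibroblast (0.33) scores passed adjustment as well.

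**Figure D3:**
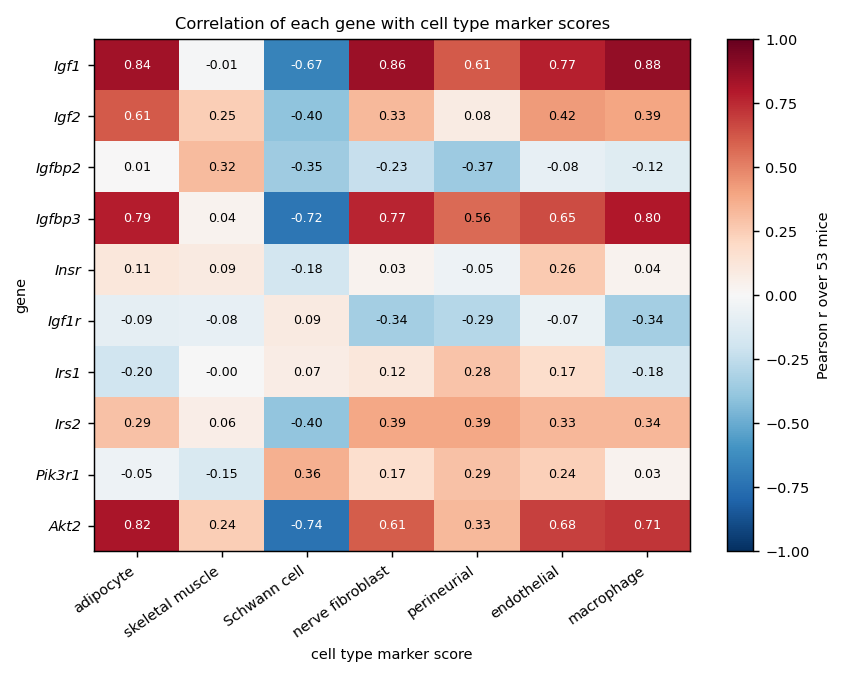
Pearson correlation over 53 mice (colour and number) between each of the 10 genes (rows) and 7 cell type marker scores (columns). Igf1, Igfbp3 and Akt2 correlate with the adipocyte, fibroblast, endothelial and macrophage scores at 0.61 or more and with the Schwann cell score at -0.67 or lower, while Insr and Irs1 stay between -0.20 and 0.28.

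The receptor and substrate genes did not follow these scores to that extent. Insr lay between r = -0.18 with Schwann cells and 0.26 with endothelial cells, and Irs1 between -0.20 and 0.28, and none of these passed adjustment. Igf1r was inversely related to the macrophage score (r = -0.34, rho = -0.38, permutation p = 0.0121 and 0.00536, adjusted p = 0.0293 and 0.0144), with -0.28 for r without the 2 farthest mice. It was also inversely related to the fibroblast score (r = -0.34, rho = -0.43, adjusted permutation p = 0.0293 and 0.00538), with r = -0.45 without the 2 farthest mice. Irs2 had its highest r with the perineurial score (r = 0.39, rho = 0.28, permutation p = 0.00392 and 0.0402, adjusted p = 0.0119 and 0.0879), with r = 0.35 without the 2 farthest mice. Irs2 was about as close to the fibroblast score (r = 0.39, rho = 0.33, adjusted permutation p = 0.0122 and 0.0386), with r = 0.26 without the 2 farthest mice. It was inversely related to the Schwann cell score (r = -0.40, rho = -0.42, permutation p = 0.00342 and 0.00215, adjusted p = 0.0114 and 0.00654), with r = -0.32 without the 2 farthest mice. Pik3r1 was higher with a higher Schwann cell score (r = 0.36, rho = 0.41, permutation p = 0.00835 and 0.00286, adjusted p = 0.0225 and 0.00834), with r = 0.37 without the 2 farthest mice. In all, 34 of 70 relations passed an adjusted p of 0.05 for Pearson's r. The share of all genes that would pass against the same scores was not computed, so this count does not set the members apart from other genes. The part of these cell types in the group differences was not tested beyond the covariate fits given here.

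**Figure D4:**
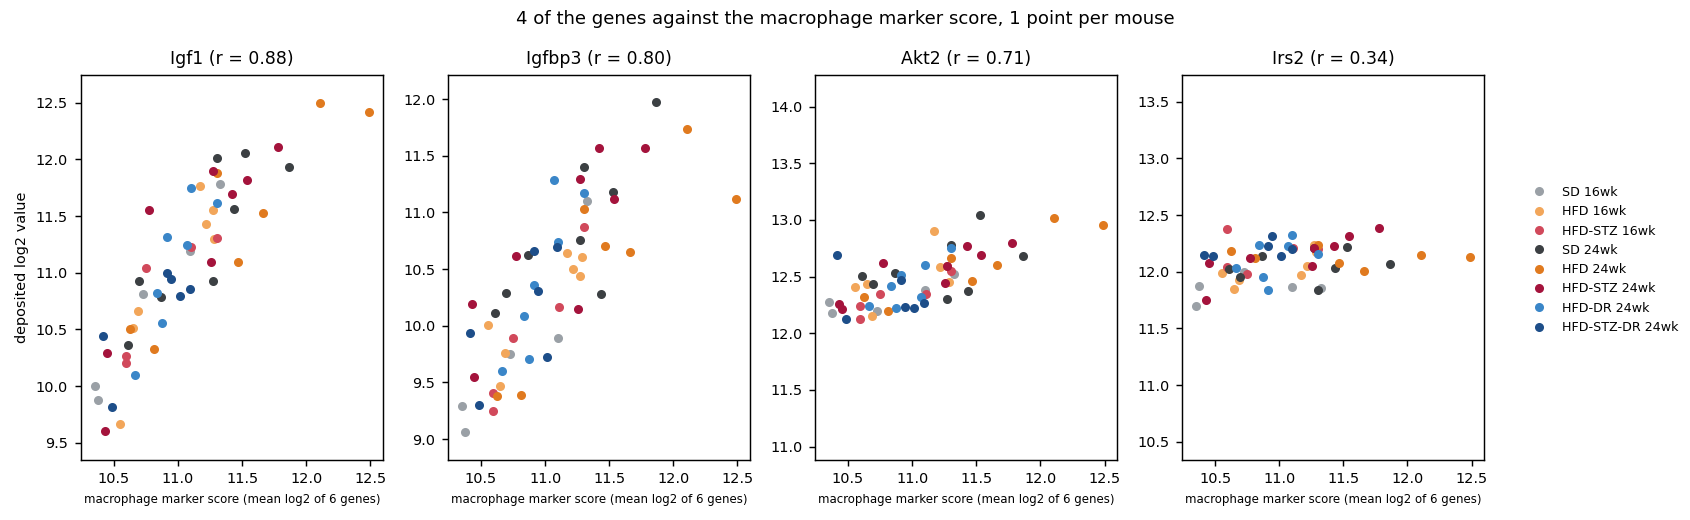
Deposited log2 value (vertical axis, each panel spanning 3.4 log2 units) of Igf1, Igfbp3, Akt2 and Irs2 against the macrophage marker score (horizontal axis, mean log2 value of 6 genes), 1 point per mouse coloured by group. Igf1 and Igfbp3 climb with the score in mice of every colour (r = 0.88 and 0.80), Akt2 less steeply (r = 0.71), and Irs2 stays nearly level (r = 0.34).

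Among themselves, Igf1, Igfbp3 and Akt2 varied together over the 53 mice, with r = 0.84 for Igf1 and Igfbp3, 0.80 for Igf1 and Akt2 and 0.77 for Igfbp3 and Akt2, and the 2 receptors correlated at 0.61. Igf1 and its receptor were inversely related, at -0.33. As a description over 53 samples that share their groups and cell content, the genes closest in pattern to each member, of 18068 compared, include the following. Igf1 was closest to Loxl1 (r = 0.94), Nrp1 and Cfp, and Igfbp3 to Penk (0.91), Inmt and Osr1. Akt2 was closest to Pnpla2 (0.93), the gene of adipose triglyceride lipase, and to Acsl1 and Ppp2r5a. Insr was closest to Kmt2d (0.87), Crebbp and Kcnq1ot1, Igf1r to Trrap (0.82), Arid1a and Gm15800, and Irs1 to Ankrd28 (0.86) and Pcnx. Irs2 was closest to Zswim8 (0.73), Rere and Fbrsl1, and Pik3r1 to Atxn1l (0.81), Hipk1 and Otud7b. Igf2 was closest to Cbfa2t3 (0.79), H19 (0.72) and Midn, of which H19 is the neighbouring imprinted gene, and Igfbp2 to Mrps9 (0.71), Scx and Mrps10.

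The rest of the pathway was followed through 57 further genes, of which 52 passed the filter on low values, and through 14 genes whose transcription insulin is known to induce or, by way of FOXO, to repress. The insulin genes themselves were near the floor of the scale, with Ins1 at a mean log2 value of 1.33 and Ins2 at 1.82, as were Igfbp1 at 1.05 and Irs4 at 0.31. The other binding protein genes Igfbp4, Igfbp5, Igfbp6 and Igfbp7 had mean log2 values of 14.11, 14.98, 14.82 and 14.49. In limma, 0 of the 66 tested genes passed the adjusted threshold in any of the 14 comparisons. Before adjustment, SD mice of 24 weeks differed from those of 16 weeks in 17 of the 66, with 14 higher and 3 lower, beside 5.43% and 5.04% of all genes, and HFD-STZ-DR mice differed from SD in 15, with 2 higher and 13 lower, beside 4.49% and 4.67%. The median difference over the 66 was +0.16 and -0.09 in these comparisons, beside +0.01 and -0.01 over all genes. The adipocyte score differed in both, as did the Schwann cell score in the first and the nerve fibroblast score in the second. The largest adipocyte difference, -1.92, was that of DR in the STZ model. There 2 of the 66 were higher and 6 lower before adjustment, with a median of -0.003. HFD mice of 16 weeks, at +1.83 from SD in that score, had 9 higher and 3 lower, with a median of +0.08. The part of these scores in the counts was not tested.

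Of the secreted components, Igfals, the acid labile subunit that completes the circulating complex of IGF and IGFBP3, ranged from 5.49 to 7.15 in HFD-STZ-DR and from 6.61 to 9.16 in HFD-STZ mice. The difference was -1.68 ± 0.42 (SE), with an adjusted p of 0.184 in limma. Stc2, the gene of an inhibitor of the IGFBP protease PAPP-A, differed by +1.52 ± 0.39 between HFD and SD mice at 16 weeks (adjusted p = 0.358 in limma). Between SD mice of 24 and 16 weeks it differed by +1.41 ± 0.38 (adjusted p = 0.338 in limma). These 2 differences share the SD mice of 16 weeks. The Stc2 mean in those mice was 3.96, close to the low-value filter of 3.322. It was 5.47 in HFD mice of 16 weeks and 5.36 in SD mice of 24 weeks. Both differences thus rest on 1 control group with values near the filter, and neither is given without its sample of high muscle score. Of the intracellular genes, Tsc1, an inhibitor of mTORC1, differed by +0.45 ± 0.12 between HFD and SD at 16 weeks (adjusted p = 0.392), and Pik3cb, a catalytic PI3K subunit, by -0.42 ± 0.13 between HFD-STZ-DR and HFD-STZ (adjusted p = 0.322). All of these gene differences were under 0.05 before adjustment in limma, and none passed after it.

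The 6 transcripts of fat synthesis that insulin induces were centred below SD in the 24-week groups, with median differences of -0.56 in HFD, -0.49 in HFD-STZ, -0.34 in HFD-DR and -0.54 in HFD-STZ-DR mice. In HFD against SD mice 4 of the 6 had an unadjusted p under 0.05, all lower, beside 3.51% of all genes that were lower at that level, and in HFD-STZ against SD mice 3 did, beside 2.69%. In HFD-DR against SD mice 0 of the 6 were lower at that level, beside 1.43%, and in HFD-STZ-DR against SD mice 4 were, beside 4.67%. For the 8 FOXO-induced transcripts the medians against SD were -0.14 in HFD, -0.21 in HFD-STZ, +0.06 in HFD-DR and -0.10 in HFD-STZ-DR mice. Among them, Ccng2 differed by +0.24 in HFD-STZ mice (adjusted p = 0.612 in limma). Klf15 differed by -0.29 in HFD-DR mice (adjusted p = 0.925). The lipogenic Scd1 differed by -1.57 between HFD-STZ-DR and SD mice (adjusted p = 0.329 in limma). The adipocyte score differed by -1.46 in that comparison (6 of 6 markers, exact permutation p = 0.00866, unadjusted). No lipogenic value with that score as a covariate is given for it. Srebf1 differed by +0.22 between HFD-STZ and HFD mice (adjusted p = 0.785). Fasn, fatty acid synthase, ran from 13.75 to 16.02 with a median of 14.67 in SD mice, from 13.41 to 14.14 with a median of 13.82 in HFD mice and from 13.30 to 14.05 with a median of 13.77 in HFD-STZ mice. The SD mice reached far higher and overlapped at their lower end. Fasn differed by -0.95 ± 0.28 (SE) in HFD mice (adjusted p = 0.259 in limma) and by -1.04 ± 0.27 in HFD-STZ mice (adjusted p = 0.425), with both against the same SD mice. In HFD-DR mice, at 13.79 to 14.86, it was +0.43 ± 0.16 from HFD (adjusted p = 0.642), and in HFD-STZ-DR mice +0.13 ± 0.14 from HFD-STZ (adjusted p = 0.954). Elovl6, an elongase of saturated fatty acids, differed between 24 and 16 weeks by -0.54 ± 0.13 in SD, -0.53 ± 0.11 in HFD and -0.46 ± 0.13 in HFD-STZ mice, with adjusted p-values of 0.269, 0.128 and 0.289 in limma. The Schwann cell score differed by -0.28, -0.22 and -0.25 in the same comparisons, with 6 of 6 markers lower in each (exact permutation p = 0.0381, 0.0466 and 0.0458, unadjusted), and its part in the Elovl6 differences was not tested. Among the members, Igfbp3 differed with age by +1.01, +0.37 and +0.84 and Irs2 by +0.20, +0.10 and -0.02 in SD, HFD and HFD-STZ mice.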

How the data were processed

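Values came from 53 SCN samples. The authors used HISAT2 with the mouse build mm10 (GRCm38) for alignment and featureCounts for gene counts. The labels name Trizol and a TruSeq mRNA kit, the study's methods another extraction and library kit. The deposited values are log2 values, 1 per gene and sample, normalized by the authors in a way not given in the sources used here. The authors' processing notes also name DESeq2. Since the values are not counts, a test on the log scale was used. The study's methods give an approximate number of reads per sample, but neither the depth of each single sample nor counting error can be stated. Groups came from the labels.

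For each comparison limma 3.58.1 (R 4.3.3) was run on the samples of its groups alone, with a variance prior following mean expression, over genes with a mean of at least 3.322. Genes reaching values above 22 (25 genes) were dropped, and adjustment was by Benjamini-Hochberg over every gene in a fit. Exact permutation tests were 2-sided. The fits were tested on simulated data. Correlations between samples ran from 0.916 to 0.994, and 0 pairs were identical. Python 3.11.15, numpy 2.4.6, pandas 2.3.3 and matplotlib 3.10.9 were used.

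The members and lists were chosen with earlier results of these data known. Named genes are the members and, of the pathway and response lists, some of the 2 with the smallest p in each comparison, with their values elsewhere. List genes that passed under an alternative are named as well. Genes named for their levels or pattern are the nearest neighbours and low or abundant family members. Alternatives were no filter, a filter in every sample, all 8 groups in 1 fit, that fit with runs of library numbers, robust or untrended variances, genes above 22 kept, median centring, adipocyte or muscle covariates and leaving out each sample. Fibroblast and macrophage covariates and leaving out samples of muscle score above 14 were added after seeing the data. Of the genes closest in pattern to the members, 1 is not reported here.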

Additional observations from a re-analysis of the deposited data

Results flagged for a closer look

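Of 80 groups of values of single members, 3 held a sample far from the others of its group by Dixon's test at the 95% level, where chance gives about 1 in 20, or 4. Insr was 11.05 in replicate 1 of the HFD-STZ mice of 16 weeks, while the other 4 lay between 10.40 and 10.59. Igf2 was 10.20 in 1 HFD mouse of 16 weeks, while the other 6 lay between 9.53 and 9.75. Igfbp2 was 7.74 in replicate 7 of the HFD-STZ mice of 24 weeks, while the other 7 lay between 4.37 and 5.52, and this is the sample with the lowest correlation to the rest of the series.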

How the results depend on the processing

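The labels give no replicate numbers that groups share, and no paired analysis was made. Library numbers fall in 8 runs, and what a run marks is not stated. The mice of a group were each in a different run, except HFD mice of 16 weeks (7 mice in 6 runs). The comparisons as reported did not take runs into account, and a fit with runs was made only for all 8 groups together. For the members, 0 differences passed the adjusted threshold under any alternative, with smallest adjusted p-values from 0.0751 (macrophage covariate) to 0.428 (no filter), and none of the 14 differences under an unadjusted p of 0.05 changed sign. Their number fell from 14 to 8 without the samples of muscle score above 14, and 5 of the 14 were among those 8. With the adipocyte covariate 4 of the 14 stayed under 0.05 and 44 of 170 member differences and interactions changed sign, with the fibroblast covariate 7 and 30, and with the macrophage covariate 7 and 36. Of the 14, 9 stayed under 0.05 with all 8 groups in 1 fit, 8 with runs added and 8 with median centring. The count over all genes depended more on the fit, with 58 adjusted calls in the comparisons as reported, 219 with all 8 groups in 1 fit and 367 with runs of library numbers added.

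Of the pathway and response genes, 0 passed in any comparison as reported. Between HFD and SD at 24 weeks 1 passed in the fit of all 8 groups (Fasn), 2 with runs added (Fasn and Acly) and 2 with the adipocyte covariate (Eif4ebp1 and Scd1). Fasn was the 1 gene that passed between HFD-STZ and SD at 24 weeks in the fit of all 8 groups and the 1 with runs added. Elovl6 was the 1 gene between SD mice of 24 and 16 weeks in both of these fits, and the 1 between HFD mice of these ages with runs added and the 1 with the adipocyte covariate. Igfals was the 1 gene between HFD-STZ-DR and HFD-STZ with the fibroblast covariate, and leaving out 1 sample gave 0 to 1 there, with Igfals passing without replicate 6 or 7 of HFD-STZ (adjusted p = 0.0463 and 0.0350 in limma). Why these fits differ was not tested. The number of mice and their spread limit what could be seen for Igf1, Igfbp2 and Igfbp3, and the reads behind each value are unknown.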
